A study of Mus musculus with 29 samples.

Results

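The interferon response genes described here are 35 genes of the mouse heart that are named in immunology as targets of type I and type II interferon. They were taken by symbol from the series' table of mRNA counts, where each had to average at least 0.5 CPM (gene counts scaled to a common library total) over the 29 libraries; 35 of 35 listed genes did, out of 23418 gene rows. By role they fall into 22 interferon-stimulated genes (ISGs), 10 interferon-inducible GTPases and 3 genes of antigen processing. The ISGs comprise 16 effectors, 3 transcription factors and 3 sensors of viral RNA. All 35 were among the 13765 genes with enough counts to be tested.

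Cells that sense a virus or stray nucleic acid secrete type I interferon, and activated T cells and natural killer cells secrete interferon gamma, the type II ligand. Type I interferon signals through Ifnar1 and Ifnar2 to a complex that includes Stat2 and Irf9 and binds the interferon-stimulated response element (ISRE). Interferon gamma signals through Ifngr1 and Ifngr2 and acts at the gamma-activated site (GAS). The ISGs are classically read as the type I arm, whereas the guanylate-binding proteins (Gbp genes) and the immunity-related GTPases (Igtp, Irgm1, Irgm2 and Iigp1) respond strongly to interferon gamma and guard against intracellular microbes. In the heart, macrophages, endothelial cells and cardiomyocytes can all express such genes.

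The 29 libraries were polyadenylated RNA from hearts of C57BL/6J mice labelled as 12 weeks old, read as single ends on Illumina HiSeq instruments. Of these, 15 came from hearts 4 weeks after TAC, the narrowing of the transverse aorta that overloads the left ventricle, and 14 from unstressed hearts. The TAC groups held 3 hearts with postnatal cardiac ablation of PKCdelta, 4 with germline knockout of PKCepsilon, 4 of the combined knockout and 4 of wild type. The unstressed groups held 3, 3, 4 and 4 hearts in that order. PKCdelta and PKCepsilon, encoded by Prkcd and Prkce, are protein kinases C activated by diacylglycerol. The labels do not name the promoter behind the cardiac ablation, give one mouse per library without a litter or day, and list no sham-operated group, so TAC is set against hearts without surgery. The tissue label is whole heart, whereas the protocol describes the frozen apex of the ventricles. In bulk tissue, fewer cells of a type and less RNA per cell cannot be told apart, and the p-values rest on how far these libraries differ from each other.

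Promoter letters are shown because the members are grouped by interferon type, and the ISRE and GAS are the letters through which those types act. RefSeq promoters (GRCm38.p6) were matched for 26 of the 35 genes, and the 250 bases before each gene start were searched on both strands. The ISRE was taken as GAAA, any 2 bases and GAAA (TTTC, any 2 bases and TTTC on the other strand), and the GAS as TTCNNNGAA, which reads the same on both strands. The windows below hold 80 bases each, 5′ to 3′ on the gene's own strand, with every base of a match in capitals.
Isg15: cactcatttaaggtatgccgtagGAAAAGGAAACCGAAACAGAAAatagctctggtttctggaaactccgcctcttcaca
Bst2: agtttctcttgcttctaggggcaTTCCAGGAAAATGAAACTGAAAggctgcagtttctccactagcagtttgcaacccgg
Ifit1: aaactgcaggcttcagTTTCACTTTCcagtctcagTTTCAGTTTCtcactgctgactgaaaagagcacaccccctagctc
Gbp7: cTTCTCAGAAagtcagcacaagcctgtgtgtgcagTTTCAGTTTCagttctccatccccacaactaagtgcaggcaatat
Irgm1: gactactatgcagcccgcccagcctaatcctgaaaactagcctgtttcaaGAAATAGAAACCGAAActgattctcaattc
Igtp: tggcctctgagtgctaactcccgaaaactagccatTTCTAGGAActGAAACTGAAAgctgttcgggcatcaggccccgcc
Irgm2: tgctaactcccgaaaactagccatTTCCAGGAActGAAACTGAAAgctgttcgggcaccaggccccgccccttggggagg
Psmb8: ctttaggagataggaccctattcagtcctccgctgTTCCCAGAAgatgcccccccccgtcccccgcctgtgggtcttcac
The windows lie at chr4:156200840-156200919 on the minus strand (Isg15), chr8:71537552-71537631 on the minus strand (Bst2), chr19:34640769-34640848 on the plus strand (Ifit1) and chr3:142530248-142530327 on the plus strand (Gbp7). The others lie at chr11:48871421-48871500 on the minus strand (Irgm1), chr11:58199476-58199555 on the plus strand (Igtp), chr11:58214878-58214957 on the plus strand (Irgm2) and chr17:34198063-34198142 on the plus strand (Psmb8).

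An ISRE match was present in 14 of the 26 matched genes (53.8%), against 3.46% of the 27025 genes in the promoter table. All 6 matched GTPases held one, as did 8 of 17 matched ISGs (47.1%) and 0 of 3 antigen-processing genes. A GAS match was present in 7 of 26 (26.9%), against 8.13% of all genes, and was found in 3 of 6 GTPases, 3 of 17 ISGs and 1 of 3 antigen-processing genes. Isg15 holds overlapping ISRE matches in a row, and in Bst2 the GAS match shares bases with the ISRE match. In Igtp and Irgm2 the GAS match stands just upstream of the ISRE match. These neighbouring genes share 67 of 69 compared bases of their windows. The differences are T39C, inside the spacer of the GAS match, and T69C, with positions counted from 1 at the 5′ end of the Igtp window and the Igtp base first. A match describes letters and does not show that a factor was bound.

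Library depth ranged over 10523709 to 17314739 gene counts, of which 3565 to 7519 fell on the 35 members. Prkce averaged 9.46 ± 1.64 CPM in TAC hearts of the PKCepsilon knockout, against 35.1 ± 8.48 CPM in wild-type TAC hearts, and 8.41 ± 0.780 CPM in unstressed knockout hearts, against 49.6 ± 2.48 CPM in unstressed wild type (SD, n = 4, 4, 3 and 4). It was lower in the PKCepsilon and combined knockouts than in wild type by edgeR's quasi-likelihood test with Benjamini-Hochberg adjustment, with log2 differences of -2.57 ± 0.32 (SE) in unstressed PKCepsilon hearts (adjusted p = 8.55e-05) and -2.77 ± 0.29 in the unstressed combined knockout (adjusted p = 8.37e-07), and of -1.90 ± 0.28 and -1.24 ± 0.27 in their TAC hearts (adjusted p = 0.00545 and 0.0104). In TAC hearts of the combined knockout it read 9.71, 31.5, 8.21 and 10.97 CPM, so the library labelled combined knockout TAC 2 went against its label, and wild-type TAC 2 was the lowest of its group (Prkce 40.4, 24.0, 33.3 and 42.9 CPM). Both are counted as labelled. Without them Prkce averaged 9.63 ± 1.38 CPM in combined knockout TAC hearts and 38.9 ± 4.98 CPM in wild-type TAC hearts (SD, n = 3 each), and the log2 difference was -2.02 (adjusted p = 1.83e-12, edgeR's quasi-likelihood test). For members and pathway genes, the value without both is given where a call was lost. Prkcd was not called against wild type in any genotype and rose after TAC in the PKCepsilon knockout (0.40), the combined knockout (0.55) and wild type (0.61 on the log2 scale, adjusted p = 0.0213, 0.000533 and 0.000260); counts over the whole gene do not check an ablation confined to one cell type. Of 23 libraries labelled male, 10 held under 1 CPM of Y-linked transcripts, and of 6 labelled female, 4 held at least 1 CPM. All unstressed hearts and all PKCepsilon TAC hearts were labelled male. The 6 labelled female were TAC hearts of the other genotypes, so labelled sex cannot be fully told apart from TAC or genotype. For both reasons labelled sex was not a term of the fit.

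Each comparison was tested across all genes with edgeR's quasi-likelihood test with Benjamini-Hochberg adjustment, and a gene is called where its adjusted p is below 0.05. After TAC, 1 of the 35 members was called in the PKCdelta ablation, higher, beside 26.9% of all genes tested in either direction (12.9% higher). In the PKCepsilon knockout 5 were called, 1 higher and 4 lower, beside 28.9% (14.5% higher and 14.3% lower). In the combined knockout 6 were called, 5 higher and 1 lower, beside 43.8% (22% higher and 21.8% lower). In wild type 5 were called, all higher, beside 35.7% (17.8% higher). The members' shares, 2.86%, 14.3%, 17.1% and 14.3% in the same order, all lay below the share of all genes. The median log2 fold change of the 35 members after TAC was -0.03 in the PKCdelta ablation, -0.08 in the PKCepsilon knockout, 0.21 in the combined knockout and 0.08 in wild type, while that of all genes lay between -0.02 and 0.00. Without both libraries in doubt it was 0.16 in the combined knockout and 0.11 in wild type.

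Against unstressed wild type, 0 members were called in the PKCdelta ablation by edgeR's quasi-likelihood test and by DESeq2, beside 5.37% of all genes; 4 had an unadjusted p below 0.05, and the lowest adjusted p was 0.0983 (Usp18, a brake on type I signalling). In the PKCepsilon knockout 2 were called, both higher, beside 3% of all genes (1.53% higher). In the combined knockout 7 were called, all lower, beside 29.2% (13.9% lower). Among TAC hearts, 0 members were called in the PKCdelta ablation by either tool (0 at an unadjusted p below 0.05), beside 0% of all genes, and 0 in the PKCepsilon knockout by either tool (2 at an unadjusted p below 0.05), beside 0.0436%. In TAC hearts of the combined knockout 1 member was called, lower, beside 6.76% (2.54% lower). The test of whether the TAC response differed from that of wild type called 0 members for the PKCdelta ablation by either tool (0 at an unadjusted p below 0.05) and 0 for the PKCepsilon knockout by either tool (4 at an unadjusted p below 0.05), beside 1.27% and 0.0363% of all genes. For the combined knockout it called 3 members, all higher, beside 25.1% (12.6% higher). Comparisons that share libraries, such as those against unstressed wild type, are not independent of each other.

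**Figure D1:**
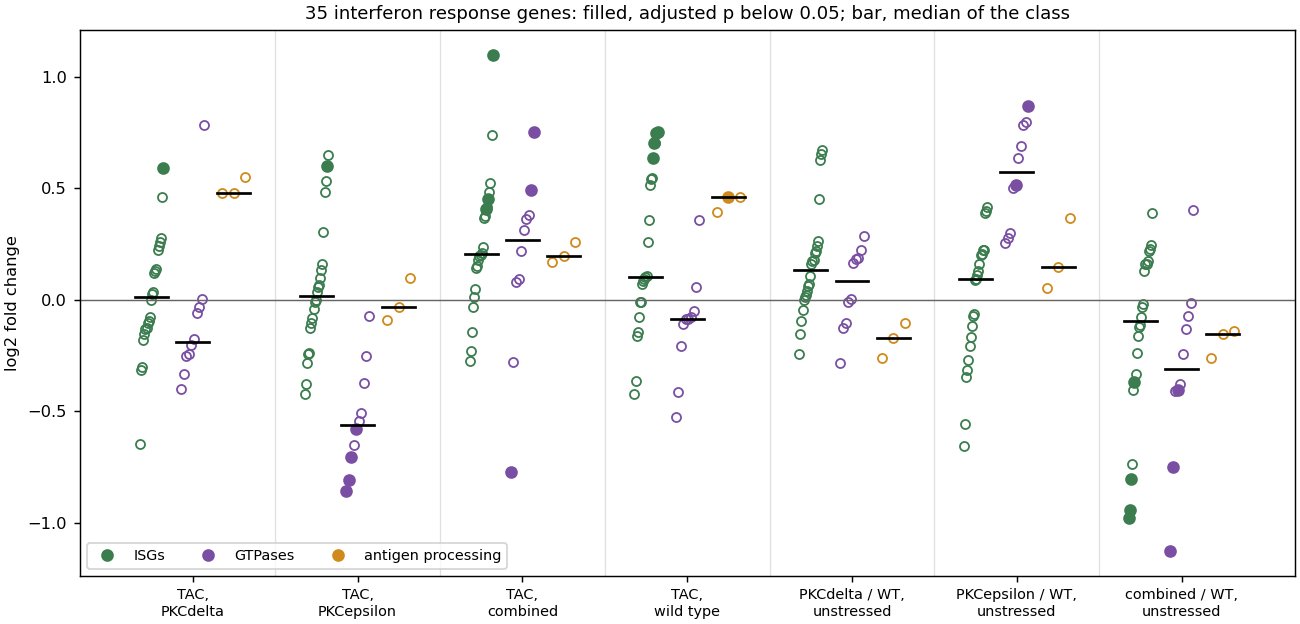
Log2 fold change (y axis) of each of the 35 members in 7 comparisons (x axis), with ISGs in green, GTPases in purple and antigen-processing genes in orange. Filled points have an adjusted p below 0.05 and bars mark the class median. The GTPase median is -0.56 for TAC in the PKCepsilon knockout and 0.57 for the unstressed PKCepsilon knockout against wild type, while the ISG medians there are 0.02 and 0.09.

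Among the effectors, Bst2 (tetherin, which holds budding virus on the cell surface) was called in more comparisons than any other ISG effector. It read 18.9, 17.9 and 15.6 CPM in TAC hearts of the PKCdelta ablation, against 11.3, 13.4 and 10.1 CPM in unstressed ones. In the PKCepsilon knockout it read 16.1, 12.7, 14.8 and 14.7 CPM after TAC, against 9.57, 10.7 and 8.64 CPM unstressed. Wild type gave 17.8, 20.2, 20.0 and 16.1 CPM after TAC, against 10.7, 15.1, 11.8 and 10.3 CPM unstressed. In these 3 genotypes every TAC library lay above every unstressed library. Bst2 rose by 0.59 ± 0.17 (SE) on the log2 scale in the PKCdelta ablation (adjusted p = 0.00895, edgeR's quasi-likelihood test), by 0.60 ± 0.16 in the PKCepsilon knockout (adjusted p = 0.00673) and by 0.63 ± 0.14 in wild type (adjusted p = 0.00103). Only the PKCdelta call was lost when a library was left out, at adjusted p = 0.0663 without unstressed replicate 3. In the combined knockout Bst2 read 10.2, 15.4, 14.4 and 13.7 CPM after TAC, against 9.91, 15.7, 9.43 and 11.6 CPM unstressed. Those groups overlapped, with a log2 fold change of 0.20 ± 0.15 (adjusted p = 0.275).

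Set against wild-type TAC hearts, Bst2 was lower in the combined knockout, with a log2 difference of -0.47 ± 0.14 (adjusted p = 0.0430, edgeR's quasi-likelihood test), and all 4 combined knockout libraries lay below all 4 of wild type. That call was lost without the 2 libraries in doubt (adjusted p = 0.0657) and on leaving out any 1 of wild-type TAC 1, 2 or 3 or combined knockout TAC 1 or 4 (adjusted p between 0.0525 and 0.207). It was also lost with labelled sex as a term (adjusted p = 0.219) and with only the groups compared (adjusted p = 0.164). Summing the most alike libraries and counting them as 1 sample lost it too (adjusted p = 0.0564). The macrophage and monocyte markers summed to 431 to 507 CPM in those combined knockout hearts, against 515 to 724 CPM in wild-type TAC hearts. Among the 16 tested, 5 were lower, beside 2.54% of all genes lower. Their part in the Bst2 value was not tested. Bst2 differed from wild type by -0.05 ± 0.16, -0.31 ± 0.17 and -0.03 ± 0.15 in unstressed hearts of the PKCdelta ablation, the PKCepsilon knockout and the combined knockout. In TAC hearts of the first pair of genotypes it differed by -0.09 ± 0.15 and -0.35 ± 0.14, and none of these passed the test.

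Isg15, a ubiquitin-like protein attached to other proteins, read 9.12, 6.69, 8.68 and 5.57 CPM in wild-type TAC hearts, against 3.53, 7.29, 3.82 and 3.28 CPM in unstressed wild type. One unstressed library, replicate 2, lay among the TAC libraries, and the other 3 lay below all of them. Isg15 rose by 0.75 ± 0.26 on the log2 scale (adjusted p = 0.0260, edgeR's quasi-likelihood test). The call was lost on leaving out any 1 of unstressed 1, 3 or 4 or TAC 1 or 3 (adjusted p between 0.0675 and 0.0983). With the most alike libraries summed it was lost too (adjusted p = 0.0823). In the other genotypes Isg15 changed after TAC by 0.22 ± 0.30 (PKCdelta), 0.16 ± 0.29 (PKCepsilon) and 0.18 ± 0.26 (combined), and none was called. Its differences from wild type were 0.26, 0.20 and 0.17 in unstressed hearts of the PKCdelta ablation, the PKCepsilon knockout and the combined knockout, and -0.26, -0.38 and -0.39 in their TAC hearts. The lowest adjusted p among these 6 was 0.350.

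The Ifit genes encode proteins that bind foreign RNA. Ifit3 was lower in unstressed hearts of the combined knockout, at 2.22, 4.10, 1.84 and 3.57 CPM, against 5.12, 8.26, 4.52 and 5.28 CPM in unstressed wild type. All 4 combined knockout libraries lay below all 4 of wild type. After TAC the combined knockout read 5.13, 7.22, 6.57 and 6.38 CPM, above each of its own unstressed libraries, beside 6.78, 5.93, 8.35 and 3.97 CPM in wild-type TAC hearts. Ifit3 fell by 0.98 ± 0.26 on the log2 scale in the unstressed combined knockout against wild type (adjusted p = 0.00500, edgeR's quasi-likelihood test) and rose by 1.10 ± 0.25 after TAC within the combined knockout (adjusted p = 0.000826). Both calls stood in every alternative fit and without any single library of the groups compared. After TAC in wild type it changed by 0.11 ± 0.23, and the difference between the TAC responses was 0.99 ± 0.34 (adjusted p = 0.0344). That difference was lost without both libraries in doubt (adjusted p = 0.102) and without any 1 of unstressed wild type 2, unstressed combined knockout 1 or 3, wild-type TAC 2 or 4, or combined knockout TAC 2 (adjusted p between 0.0568 and 0.0924). With only the groups compared it was lost as well (adjusted p = 0.0530).

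Elsewhere Ifit3 was not called: TAC changed it by -0.13 ± 0.27 in the PKCdelta ablation and 0.65 ± 0.27 in the PKCepsilon knockout. It differed from wild type by 0.07 and -0.65 in unstressed hearts of the PKCdelta ablation and the PKCepsilon knockout, and by -0.17, -0.11 and 0.01 in TAC hearts of the PKCdelta, PKCepsilon and combined genotypes. The unstressed PKCepsilon libraries read 3.11 to 4.497 CPM of Ifit3, below all of unstressed wild type (4.52 to 8.26 CPM). Ifit2 read 10.53, 12.0, 11.3 and 10.6 CPM in combined knockout TAC hearts, against 10.2, 6.59, 7.51 and 9.13 CPM in unstressed ones. The TAC libraries were all above the unstressed ones, and Ifit2 rose by 0.41 ± 0.16 (adjusted p = 0.0446, edgeR's quasi-likelihood test). Without combined knockout TAC 2 and wild-type TAC 2 the adjusted p was 0.0988, and it lay between 0.0531 and 0.157 without any 1 of unstressed 2 or 3 or any of the TAC replicates. The Ifit2 call was also lost with labelled sex as a term (adjusted p = 0.109). Fits with a Y-linked score, a replicate block or the most alike libraries summed lost it too (adjusted p between 0.0553 and 0.0659).

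Ifit1, the neighbour of Ifit2 and Ifit3 on chromosome 19, was called in no comparison. Its levels were 3.44, 2.47 and 1.96 CPM in PKCdelta TAC hearts, against 4.59, 3.43 and 4.31 CPM unstressed, and 3.56, 1.88, 2.76 and 2.47 CPM in PKCepsilon TAC hearts, against 3.64, 3.64 and 3.42 CPM unstressed. The combined knockout gave 2.39, 4.18, 2.70 and 2.73 CPM after TAC, against 2.77, 4.76, 2.42 and 3.98 CPM unstressed, and wild type 2.42, 2.61, 3.37 and 1.67 CPM after TAC, against 2.45, 3.83, 2.21 and 2.14 CPM unstressed. The groups overlapped in every genotype, in the PKCdelta ablation only through TAC replicate 1, which stood just above the lowest unstressed library. Log2 changes after TAC were -0.65 ± 0.28, -0.42 ± 0.27, -0.23 ± 0.24 and -0.08 ± 0.25 in the PKCdelta, PKCepsilon, combined and wild-type hearts. Differences from wild type were 0.62, 0.42 and 0.39 in the unstressed and 0.06, 0.07 and 0.24 in the TAC hearts of the PKCdelta, PKCepsilon and combined genotypes.

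A pair of other effectors were lower in the unstressed combined knockout. Rsad2 (viperin, an antiviral enzyme) read 5.40, 12.97, 6.76 and 12.0 CPM there, against 15.8, 18.1, 15.2 and 16.0 CPM in unstressed wild type. Xaf1, a partner of the apoptosis inhibitor Xiap, read 11.6, 13.4, 14.6 and 13.4 CPM, against 25.7, 25.1, 25.7 and 25.2 CPM. For both genes the groups did not overlap, and wild-type Xaf1 was nearly level across its 4 libraries. Rsad2 fell by 0.81 ± 0.25 (adjusted p = 0.0201, edgeR's quasi-likelihood test) and Xaf1 fell by 0.94 ± 0.32 (adjusted p = 0.0302). The Rsad2 call was lost without combined knockout 1 or 3 (adjusted p between 0.0644 and 0.0827). The Xaf1 call was lost without wild type 1, 3 or 4 or combined knockout 1, 2 or 4 (adjusted p between 0.0526 and 0.0811). The other 9 effectors were called in none of the 13 comparisons. They were Ifi44, Ifi35, the 2′-5′ oligoadenylate synthetase family members Oasl2 and Oas1a, the deISGylase Usp18, Rtp4, Parp14, the Z-nucleic acid sensor Zbp1 and Trim30a. After TAC their log2 changes ran between -0.31 (Ifi44) and 0.28 (Zbp1) in the PKCdelta ablation, between -0.38 (Zbp1) and 0.53 (Oas1a) in the PKCepsilon knockout, between 0.05 (Ifi35) and 0.74 (Oas1a) in the combined knockout and between -0.42 (Ifi44) and 0.70 (Oas1a) in wild type. Against unstressed wild type they ran between -0.15 (Ifi35) and 0.67 (Usp18) in the PKCdelta ablation, between -0.27 (Ifi44) and 0.40 (Zbp1) in the PKCepsilon knockout and between -0.74 (Ifi44) and 0.16 (Usp18) in the combined knockout. Oas1a after TAC in the combined knockout came closest to a call (adjusted p = 0.0525, edgeR's quasi-likelihood test).

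**Figure D2:**
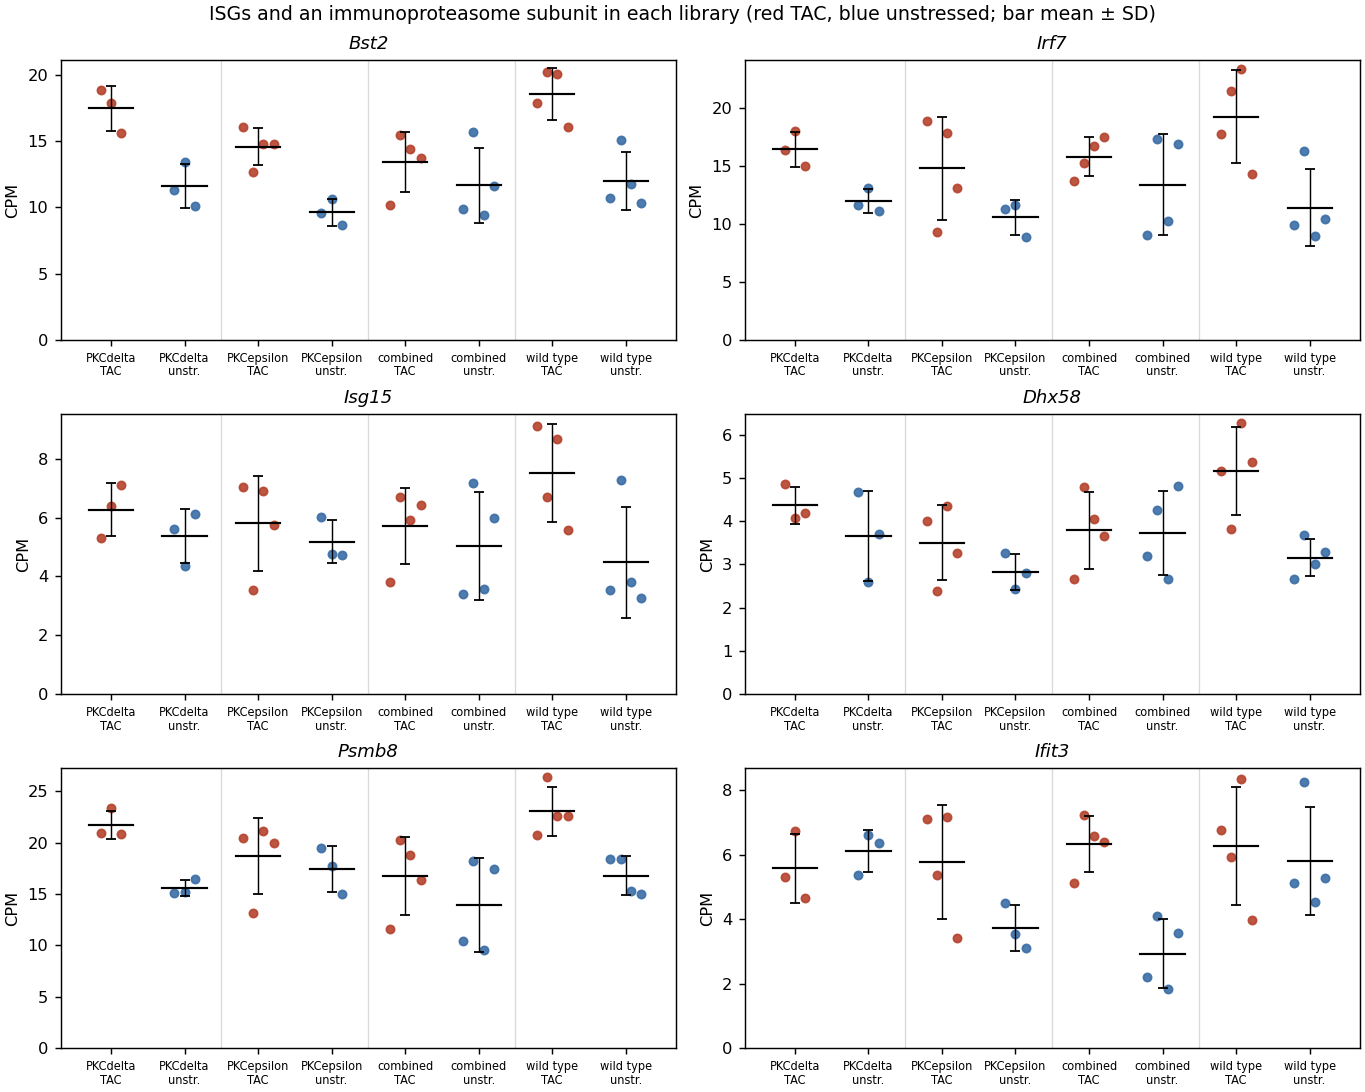
CPM (y axis) of Bst2, Irf7, Isg15, Dhx58, Psmb8 and Ifit3 in each library of the 8 groups (x axis); red points are TAC hearts, blue points unstressed hearts, and bars give the mean ± SD. Bst2 is higher after TAC without overlap in 3 genotypes, and Ifit3 lies between 1.84 and 4.10 CPM in the unstressed combined knockout, below all unstressed wild-type libraries.

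Of the factors, Irf7, which amplifies type I interferon production, read 17.8, 21.5, 23.4 and 14.3 CPM in wild-type TAC hearts, against 9.95, 16.3, 8.94 and 10.4 CPM in unstressed wild type. The lowest TAC library lay under unstressed replicate 2 and above the other 3 unstressed libraries. Irf7 rose by 0.75 ± 0.22 (adjusted p = 0.00956, edgeR's quasi-likelihood test), a call that stood in every alternative and every leave-out. In the other genotypes its TAC changes were 0.46 ± 0.26 (PKCdelta), 0.48 ± 0.25 (PKCepsilon) and 0.24 ± 0.22 (combined), none called. Against wild type it differed by 0.06, -0.12 and 0.23 in unstressed and by -0.23, -0.38 and -0.28 in TAC hearts of the PKCdelta, PKCepsilon and combined genotypes. The wild-type rise ran beside higher macrophage markers, with sums of 515 to 724 CPM after TAC against 418 to 477 CPM. Among the 16 tested, 11 were called higher and 1 lower, beside 17.8% of all genes higher. Their part in the Irf7 rise was not tested.

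Stat2, a subunit of the ISRE-binding complex, was called nowhere. It changed after TAC by -0.10 ± 0.18 in the PKCdelta ablation, -0.28 ± 0.17 in the PKCepsilon knockout, -0.15 ± 0.16 in the combined knockout and 0.26 ± 0.16 in wild type. Its highest group mean was 34.4 ± 1.89 CPM in the unstressed PKCepsilon knockout (n = 3), against 26.2 ± 4.15 CPM in unstressed wild type (n = 4), with each of the 3 knockout libraries (33.2, 36.6 and 33.4 CPM) above the 4 of wild type (25.9, 32.2, 23.6 and 23.3 CPM). That difference was 0.39 ± 0.17 on the log2 scale (adjusted p = 0.246, edgeR's quasi-likelihood test). Its differences from unstressed wild type were 0.18 in the PKCdelta ablation and 0.16 in the combined knockout, and -0.18, -0.15 and -0.25 in TAC hearts of the PKCdelta, PKCepsilon and combined genotypes. Irf9, another subunit of that complex, was also called nowhere, with TAC changes between -0.27 (combined knockout) and 0.09 (wild type).

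The sensors moved one at a time. Dhx58 (LGP2) read 5.17, 3.83, 6.28 and 5.36 CPM in wild-type TAC hearts, against 2.67, 3.68, 3.01 and 3.28 CPM in unstressed wild type. No TAC library fell below an unstressed one, and Dhx58 rose by 0.70 ± 0.21 (adjusted p = 0.00972, edgeR's quasi-likelihood test), again in every alternative and leave-out. Ddx58 (RIG-I) read 11.8, 12.0, 8.596 and 12.8 CPM in the unstressed combined knockout, against 14.2, 17.7, 12.8 and 13.8 CPM in unstressed wild type, and 12.2, 18.9, 14.5 and 16.4 CPM in combined knockout TAC hearts. The highest unstressed combined knockout library met the lowest of wild type, and the lowest TAC library lay inside the unstressed range. Ddx58 fell by 0.37 ± 0.14 in the unstressed combined knockout (adjusted p = 0.0422) and rose by 0.45 ± 0.14 after TAC within that genotype (adjusted p = 0.00835). The fall was lost without wild type 1, 2 or 4 or combined knockout 1, 2 or 3 (adjusted p between 0.0502 and 0.161), whereas the rise stood in every leave-out but was lost with labelled sex as a term (adjusted p = 0.0743). A replicate block and summing the most alike libraries also lost the fall (adjusted p = 0.0526 and 0.0616). Ddx58 changed after TAC by -0.13, 0.13 and 0.07 in the PKCdelta, PKCepsilon and wild-type hearts. It differed from wild type by 0.16 and -0.07 in unstressed hearts of the PKCdelta ablation and PKCepsilon knockout, and by -0.04, -0.01 and 0.01 in TAC hearts of the 3 genotypes. Ifih1 (MDA5) was called nowhere, its TAC changes lying between -0.30 (PKCdelta ablation) and 0.06 (PKCepsilon knockout).

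The GTPases were highest in the unstressed PKCepsilon knockout. Summed over the 10 genes, they read 227, 242 and 159 CPM in its 3 libraries, against 127, 171, 141 and 127 CPM in unstressed wild type and 140, 114, 177 and 154 CPM in PKCepsilon TAC hearts. The third unstressed knockout library lay inside the wild-type range, while replicates 1 and 2 lay above every other library of the series. Per gene, all 10 log2 differences from unstressed wild type were positive, with a median of 0.57 beside 0.00 for all genes. Of the 10, 2 were called, both higher, beside 1.53% of all genes higher. After TAC within the PKCepsilon knockout all 10 were negative, with a median of -0.56 beside 0.00 for all genes. Of these, 4 were called lower, beside 14.3% of all genes lower. Both comparisons use the same 3 unstressed PKCepsilon libraries. The difference between the TAC responses of the PKCepsilon knockout and wild type had a median of -0.36 over the 10 GTPases, and none was called.

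Gbp4 read 13.1, 8.69, 11.5 and 9.25 CPM in PKCepsilon TAC hearts, against 21.7, 21.7 and 14.6 CPM in unstressed PKCepsilon hearts. Gbp7 read 20.2, 16.0, 20.8 and 17.1 CPM, against 33.0, 34.4 and 23.3 CPM. Gbp9 read 16.4, 16.8, 20.0 and 18.9 CPM, against 25.9, 30.5 and 24.3 CPM. For each of these 3 guanylate-binding proteins, every TAC library lay below every unstressed one. Gbp4 fell by 0.86 ± 0.19 (adjusted p = 0.00113), Gbp7 fell by 0.70 ± 0.16 (adjusted p = 0.00180) and Gbp9 fell by 0.58 ± 0.12 (adjusted p = 0.000788; edgeR's quasi-likelihood test). These 3 calls stood in every alternative and every leave-out. The macrophage markers ran the other way, with 4 of 16 tested higher and none lower, beside 14.5% of all genes higher. They summed to 446 to 485 CPM in PKCepsilon TAC hearts, against 355 to 407 CPM unstressed. Pericyte and smooth muscle markers ran the same way as the Gbp genes, with sums of 1059 to 1244 CPM against 1464 to 1586 CPM. These sums also averaged lower after TAC in the other genotypes. They were 1260 against 1517 CPM (PKCdelta), 1092 against 1303 CPM (combined) and 1235 against 1429 CPM (wild type). None of these 3 Gbp genes was called after TAC there. The part of either list in the Gbp values was not tested.

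The unstressed PKCepsilon libraries, with 14.6 CPM of Gbp4 and 24.3 CPM of Gbp9 at the lowest, also lay above all of unstressed wild type, which read 8.29, 13.1, 13.3 and 7.89 CPM of Gbp4 and 16.4, 23.2, 17.9 and 17.9 CPM of Gbp9. Gbp4 was higher by 0.87 ± 0.19 in the unstressed PKCepsilon knockout (adjusted p = 0.0101) and Gbp9 by 0.51 ± 0.12 (adjusted p = 0.0196; edgeR's quasi-likelihood test). Both calls were lost on leaving out any 1 of wild type 1 or 4 or PKCepsilon 1 or 2, at adjusted p between 0.0508 and 0.0864 for Gbp4 and between 0.0613 and 0.164 for Gbp9. They were also lost when the most alike libraries were summed and counted as 1 sample (adjusted p = 0.220 and 0.260). The Gbp4 call was lost as well with only the groups compared (adjusted p = 0.0804). Gbp7 differed by 0.50 ± 0.16 (adjusted p = 0.0938) in the same comparison. In TAC hearts of the same genotypes the differences were 0.10 for Gbp4, -0.12 for Gbp7 and 0.04 for Gbp9, none called.

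Gbp2, another guanylate-binding protein, was not called in any comparison. It read 14.2, 8.75, 14.6 and 12.4 CPM in PKCepsilon TAC hearts, against 15.4, 16.9 and 16.0 CPM unstressed, and 7.62, 12.2, 10.3 and 10.8 CPM in the unstressed combined knockout, against 11.7, 16.2, 14.1 and 11.4 CPM in unstressed wild type. TAC changed it by -0.18 ± 0.17, -0.37 ± 0.16, 0.22 ± 0.15 and -0.08 ± 0.15 in the PKCdelta, PKCepsilon, combined and wild-type hearts. It differed from wild type by 0.18, 0.27 and -0.38 in unstressed and by 0.09, -0.02 and -0.08 in TAC hearts of the PKCdelta, PKCepsilon and combined genotypes.

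Gbp3 was lower in the unstressed combined knockout, at 6.72, 9.67, 4.92 and 9.06 CPM, against 11.3, 18.9, 9.54 and 11.3 CPM in unstressed wild type. One combined knockout library, replicate 2, lay just inside the wild-type range. Gbp3 fell by 0.75 ± 0.24 (adjusted p = 0.0192, edgeR's quasi-likelihood test), and the call was lost without wild type 2 or combined knockout 1 or 3 (adjusted p between 0.0615 and 0.104). Gbp3 was also not called with only the groups compared (adjusted p = 0.0554). After TAC it changed by 0.00, -0.51, 0.31 and -0.21 in the PKCdelta, PKCepsilon, combined and wild-type hearts. It differed from wild type by -0.10 and 0.25 in unstressed hearts of the PKCdelta ablation and the PKCepsilon knockout, and by 0.11, -0.05 and -0.23 in TAC hearts of the 3 genotypes. None of these others was called.

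Iigp1, an immunity-related GTPase that attacks the vacuoles of parasites, moved in opposite directions in the 2 genotypes without PKCepsilon. It read 10.54, 9.41, 13.2 and 13.7 CPM in PKCepsilon TAC hearts, against 23.3, 23.5 and 14.7 CPM unstressed. The combined knockout gave 5.95, 11.8, 9.56 and 9.36 CPM after TAC, against 1.80, 7.77, 5.17 and 7.003 CPM unstressed. Wild type gave 6.11, 6.95, 12.2 and 7.66 CPM after TAC, against 11.4, 10.97, 13.5 and 11.8 CPM unstressed. Every unstressed combined knockout library lay below every unstressed wild-type library, while the unstressed PKCepsilon libraries lay above all of them.

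Iigp1 fell by 0.81 ± 0.29 after TAC in the PKCepsilon knockout (adjusted p = 0.0360, edgeR's quasi-likelihood test). It rose by 0.75 ± 0.30 in the combined knockout (adjusted p = 0.0424), where the unstressed libraries were lower than wild type (-1.13 ± 0.29, adjusted p = 0.00582). The unstressed call stood in every alternative and leave-out. The PKCepsilon fall was lost without any 1 of its unstressed 1 or 2 or TAC 1 or 2 (adjusted p between 0.0848 and 0.136). That fall was also lost with no filter on low counts and with the most alike libraries summed (adjusted p = 0.0632 and 0.139). The combined rise was lost without unstressed 1 or 3 or TAC 2, 3 or 4 (adjusted p between 0.0700 and 0.133) and without both libraries in doubt (adjusted p = 0.128). This rise was also lost with labelled sex or a Y-linked score as a term (adjusted p = 0.0932 and 0.0681). With no filter on low counts and with only the groups compared its adjusted p was 0.0632 and 0.157. The TAC response of the combined knockout differed from that of wild type by 1.28 ± 0.41 (adjusted p = 0.0237), a call lost without wild-type TAC 1 or combined knockout TAC 2 (adjusted p between 0.0503 and 0.0554) and without both libraries in doubt (adjusted p = 0.0976). With only the groups compared that difference was not called either (adjusted p = 0.0615). Uncalled values were -0.40 and -0.53 after TAC in the PKCdelta ablation and wild type, -0.13 and 0.79 for the unstressed PKCdelta and PKCepsilon hearts against wild type, and 0.00, 0.50 and 0.15 for TAC hearts of the 3 genotypes.

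Irgm1, a regulator of the other immunity-related GTPases, read 11.7, 13.8, 13.9 and 12.8 CPM in combined knockout TAC hearts, against 8.66, 11.6, 7.34 and 9.41 CPM in unstressed ones. Unstressed wild type read 10.02, 15.6, 12.5 and 11.2 CPM. The combined knockout TAC libraries all lay above its unstressed ones, and 3 of its 4 unstressed libraries lay below all of wild type. Irgm1 rose by 0.49 ± 0.14 after TAC (adjusted p = 0.00622, edgeR's quasi-likelihood test) in every alternative and leave-out. It was lower than in unstressed wild type (-0.41 ± 0.14, adjusted p = 0.0343), lost without wild type 2 or 3 or combined knockout 1, 3 or 4 (adjusted p between 0.0583 and 0.168). With only the groups compared, Irgm1 lost that call too (adjusted p = 0.0683). Its TAC response differed from that of wild type by 0.54 ± 0.20 (adjusted p = 0.0471). That call was lost without both libraries in doubt (adjusted p = 0.0975) and in 11 of 16 leave-outs (adjusted p between 0.0522 and 0.127), namely unstressed wild type 2 and 3, unstressed combined knockout 1, 3 and 4, wild-type TAC 1, 2 and 4 and combined knockout TAC 2, 3 and 4. Fits with no filter on low counts, a Y-linked score or only the groups compared lost it as well (adjusted p between 0.0562 and 0.0758). Uncalled values were -0.24, -0.25 and -0.05 after TAC in the PKCdelta, PKCepsilon and wild-type hearts. Against wild type they were 0.29 and 0.30 in unstressed hearts of the PKCdelta ablation and the PKCepsilon knockout, and 0.09, 0.09 and 0.14 in TAC hearts of the 3 genotypes.

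Igtp (Irgm3) went the other way from Irgm1 in the combined knockout. It read 6.08, 9.05, 8.21 and 12.2 CPM in combined knockout TAC hearts, against 11.2, 18.2, 9.76 and 21.4 CPM in unstressed ones. The unstressed libraries fell into a higher and a lower pair, and the lower pair lay within the TAC range. Igtp fell by 0.77 ± 0.29 (adjusted p = 0.0351, edgeR's quasi-likelihood test). The call was lost without both libraries in doubt (adjusted p = 0.0633) and without unstressed 2 or 4 or TAC 1, 2 or 3 (adjusted p between 0.0595 and 0.160). Uncalled values were -0.33, -0.65 and 0.06 after TAC in the PKCdelta, PKCepsilon and wild-type hearts, 0.19, 0.80 and 0.40 for unstressed and -0.20, 0.09 and -0.43 for TAC hearts of the 3 genotypes against wild type. Igtp shares 162 exonic bases on the same strand with Irgm2 (8.01% of the exons of Igtp), and the Gbp genes are close copies of each other. Multi-mapped and ambiguous reads were recorded apart from the gene counts, so the counts of these genes may miss shared reads. Multi-mapped reads made up 8.01% to 14.2% of a library's count record and ambiguous ones 0.776% to 0.942%. Gbp6 and Irgm2 were called nowhere; in the unstressed PKCepsilon knockout they differed from wild type by 0.69 ± 0.30 and 0.63 ± 0.28.

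**Figure D3:**
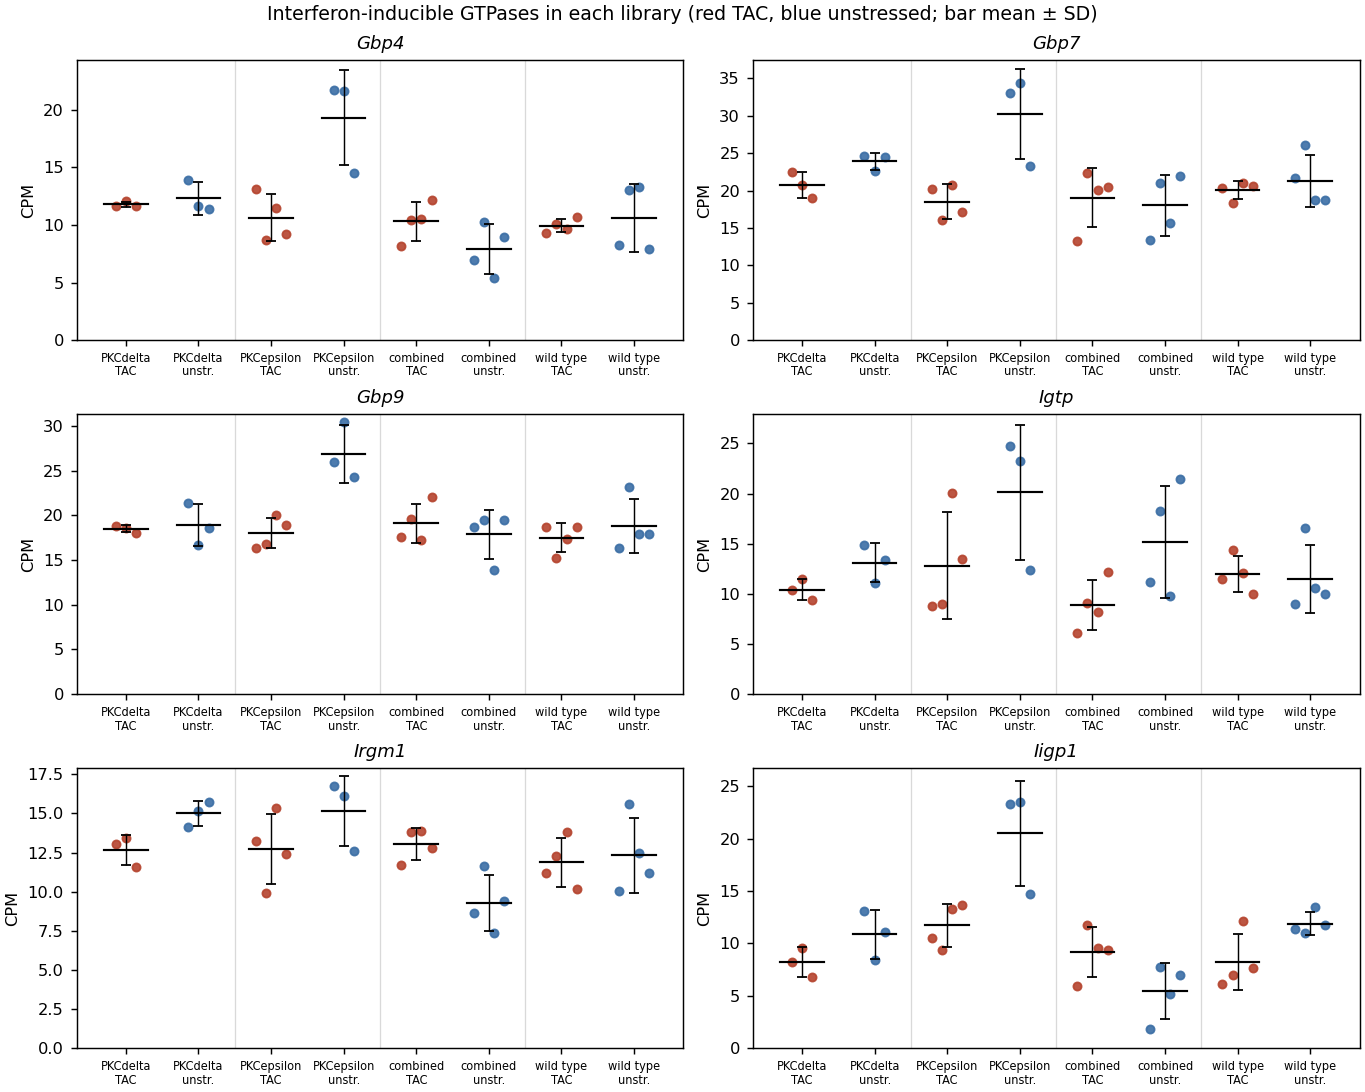
CPM (y axis) of the GTPases Gbp4, Gbp7, Gbp9, Igtp, Irgm1 and Iigp1 in each library of the 8 groups (x axis); red points are TAC hearts, blue points unstressed hearts, and bars give the mean ± SD. The unstressed PKCepsilon knockout has the highest group mean for Gbp4, Gbp7 and Gbp9, and the unstressed combined knockout is lowest for Iigp1 with a mean of 5.44 ± 2.66 CPM (SD, n = 4).

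Set against the ISGs within the same library, the GTPases were relatively most abundant in the unstressed PKCepsilon knockout. CPM are not divided by gene length, so the ratio compares libraries and not genes. The GTPase sum divided by the ISG sum was 0.919, 0.944 and 0.768 in its 3 libraries, against 0.571, 0.593, 0.665 and 0.547 in unstressed wild type. In PKCepsilon TAC hearts it was 0.537, 0.585, 0.655 and 0.689, and in wild-type TAC hearts 0.484, 0.529, 0.447 and 0.544. The 3 unstressed PKCepsilon values were the highest of the 29. The ISG sums overlapped there, averaging 237 ± 26.4 CPM in the unstressed PKCepsilon knockout (n = 3) and 239 ± 34.6 CPM in unstressed wild type (SD, n = 4). The ratio averaged 0.542 ± 0.0202 in PKCdelta TAC hearts and 0.583 ± 0.0034 in unstressed PKCdelta hearts (SD, n = 3 each), and 0.540 ± 0.0258 in combined knockout TAC hearts and 0.551 ± 0.0231 in unstressed ones (SD, n = 4 each). After TAC the class medians of the log2 fold change were -0.19 for GTPases and 0.01 for ISGs in the PKCdelta ablation, 0.27 and 0.21 in the combined knockout, and -0.09 and 0.10 in wild type. Without both libraries in doubt they were 0.16 and 0.13 in the combined knockout and -0.05 and 0.14 in wild type, and the ratio averaged 0.548 ± 0.0240 in combined knockout TAC hearts and 0.492 ± 0.0490 in wild-type TAC hearts (SD, n = 3 each).

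**Figure D4:**
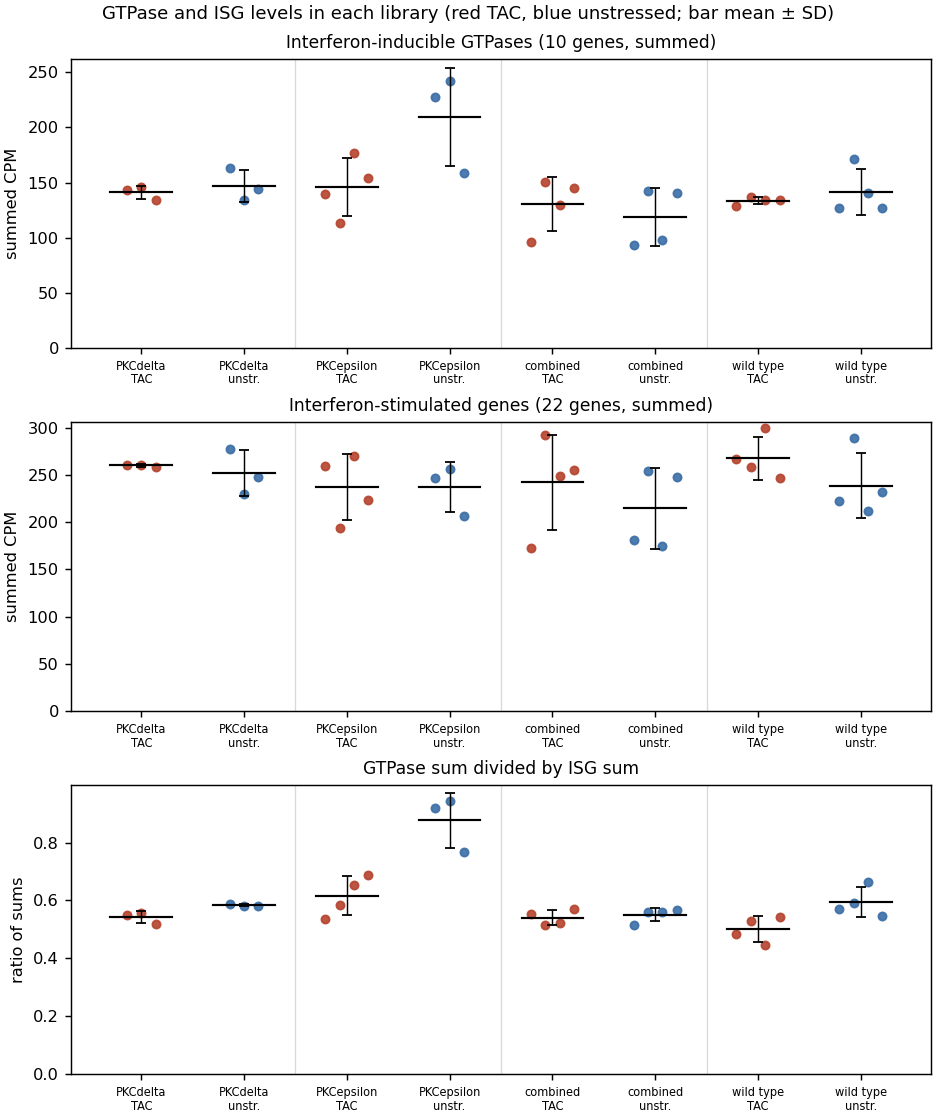
Summed CPM of the 10 GTPases (top), of the 22 ISGs (middle) and the GTPase sum divided by the ISG sum (bottom) in each library of the 8 groups (x axis); red points are TAC hearts, blue points unstressed hearts, and bars give the mean ± SD. The 3 unstressed PKCepsilon libraries have ratios of 0.768 to 0.944, above the other 26 libraries.

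Antigen processing was the class with the highest median after TAC in the PKCdelta ablation (0.48) and wild type (0.46), and stood at -0.03 in the PKCepsilon knockout and 0.19 in the combined knockout. Without both libraries in doubt the median was 0.40 in wild type and 0.20 in the combined knockout. Psmb8, a catalytic subunit of the immunoproteasome, read 20.9, 23.3 and 20.9 CPM in PKCdelta TAC hearts, against 15.1, 15.2 and 16.5 CPM unstressed. Wild type read 20.7, 26.4, 22.6 and 22.6 CPM after TAC, against 18.4, 18.4, 15.3 and 15.0 CPM unstressed. In both genotypes every TAC library lay above every unstressed one. Psmb8 rose by 0.46 ± 0.18 in wild type (adjusted p = 0.0428, edgeR's quasi-likelihood test), a call lost without unstressed 3 or 4 or TAC 2, 3 or 4 (adjusted p between 0.0608 and 0.124) and without both libraries in doubt (adjusted p = 0.107). Psmb8 lost this call too with no filter on low counts, a replicate block or the most alike libraries summed (adjusted p = 0.0614, 0.0512 and 0.0752). Its other TAC changes were 0.48 ± 0.21 (adjusted p = 0.0866), 0.10 ± 0.19 and 0.26 ± 0.18 in the PKCdelta, PKCepsilon and combined hearts. It differed from wild type by -0.11, 0.05 and -0.26 in unstressed and by -0.09, -0.31 and -0.46 in TAC hearts of the PKCdelta, PKCepsilon and combined genotypes, none called.

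Tap1, a subunit of the pump that loads peptides into the endoplasmic reticulum, was called nowhere. It averaged 16.9 ± 1.01 CPM in PKCdelta TAC hearts and 12.2 ± 1.98 CPM in unstressed ones (SD, n = 3 each), and 19.1 ± 1.67 CPM in wild-type TAC hearts and 14.6 ± 3.90 CPM in unstressed ones (SD, n = 4 each). Its TAC changes were 0.48 ± 0.22, -0.03 ± 0.20, 0.19 ± 0.19 and 0.39 ± 0.19 in the PKCdelta, PKCepsilon, combined and wild-type hearts. Its differences from wild type were -0.26, 0.15 and -0.16 in unstressed and -0.18, -0.27 and -0.35 in TAC hearts of the PKCdelta, PKCepsilon and combined genotypes. Tap1 and Psmb9 overlap on opposite strands by 212 bases, and the libraries were not strand-specific, so reads there cannot be told apart. Psmb9, another immunoproteasome subunit, was called nowhere, with TAC changes of 0.55 ± 0.24, -0.09 ± 0.22, 0.17 ± 0.21 and 0.46 ± 0.20 in the same order.

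Within a group the members moved together from library to library. Unstressed wild type 2 was the highest of its 4 libraries for 31 of 35 members (88.6%, beside 29.9% of all genes tested). Combined knockout TAC 1 was the lowest of its 4 for 33 members (94.3%, beside 28.1%), and PKCepsilon TAC 2 for 27 (77.1%, beside 21.5%). In the unstressed combined knockout, libraries 2 and 4 were both above 1 and 3 for 31 members (88.6%, beside 24.3%), 9 of the 10 GTPases included. In libraries 1 to 4 the fibroblast markers summed to 2097, 2498, 2063 and 2513 CPM, the endothelial markers to 1538, 1693, 1624 and 1698 CPM and the macrophage markers to 514, 516, 509 and 529 CPM. All 3 sums were higher in 2 and 4 than in 1 and 3, the macrophage sums by the least, and their part in the split was not tested. The median within-group SD of the members on the log2 scale was 0.39 in that group, beside 0.15 for all genes, and 0.34 in combined knockout TAC hearts, beside 0.20. In the unstressed PKCepsilon knockout, libraries 1 and 2 were both above 3 for 29 members (82.9%, beside 38.3%), 9 of the 10 GTPases included, and the SD was 0.21, beside 0.14. The chi-square per degree of freedom between those libraries 1 and 2 was 2.54, against 8.05 and 12.6 for the other pairs of the group. In unstressed wild type, libraries 1 and 4 gave 2.24, against 6.895 to 12.7 for the other pairs. In PKCdelta TAC hearts, libraries 1 and 2 gave 2.48, against 5.18 and 5.16. Whether the libraries of such close pairs came from separate hearts was not tested. No pair of replicates agreed within sampling noise. The closest were unstressed combined knockout 2 and 4, with a chi-square per degree of freedom of 1.56, against 9.96 to 15.2 for the other pairs of that group.

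**Figure D5:**
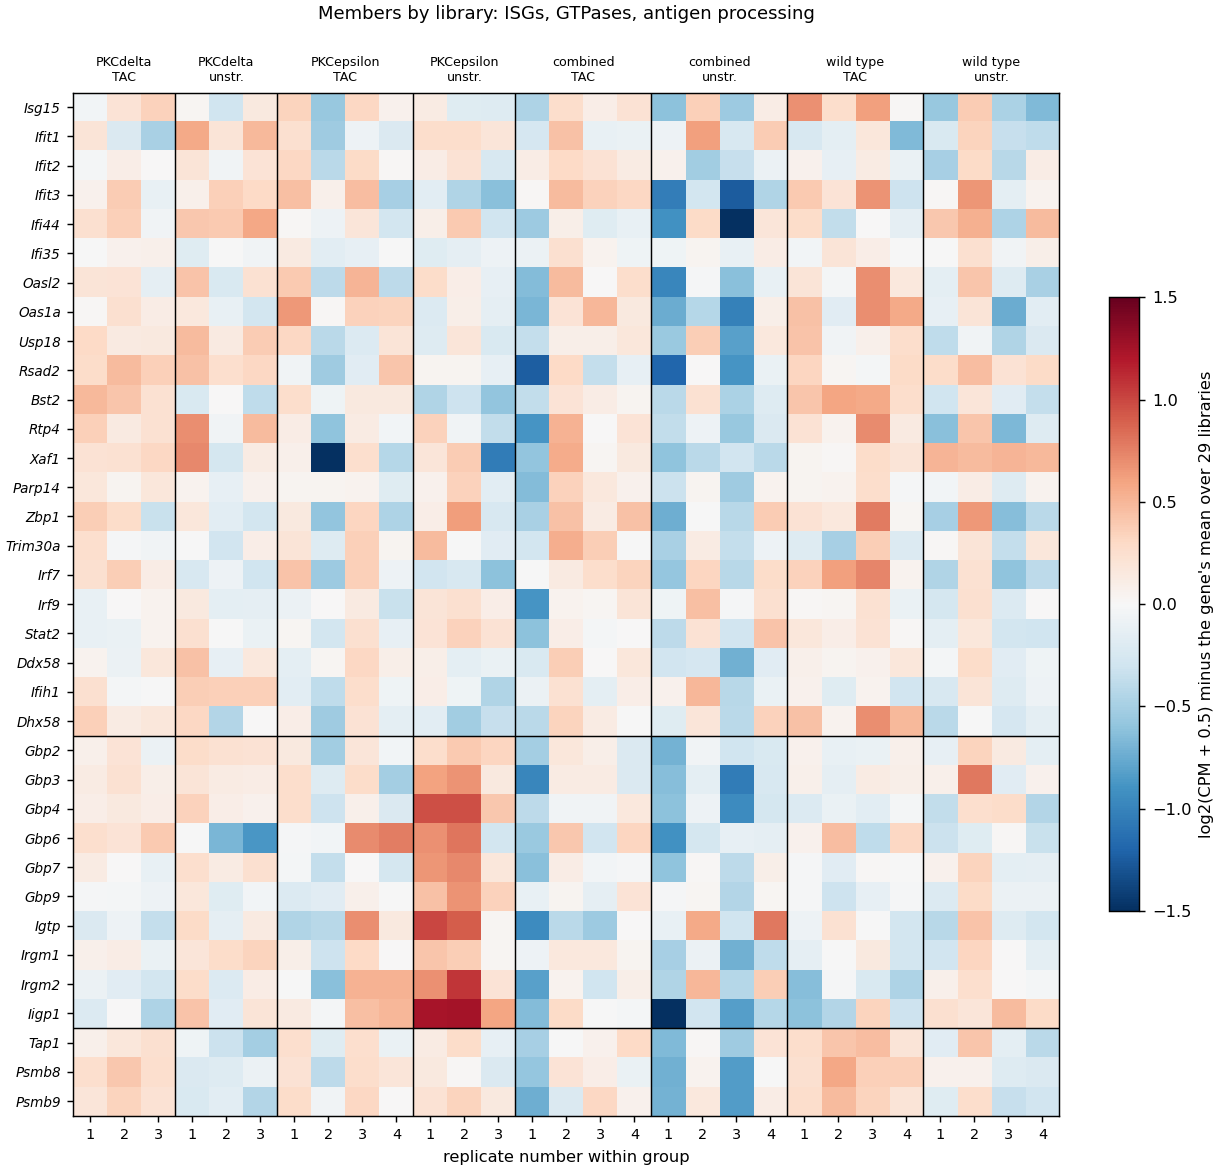
Level of each member (rows) in each library (columns, by group), as log2(CPM + 0.5) minus the gene's mean over the 29 libraries; red is higher and blue lower, and values beyond the ends of the colour scale take the end colours. Combined knockout TAC 1 is below the gene's mean for 33 of 35 members, and the GTPase rows are above it in unstressed PKCepsilon 1 and 2.

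The ligands were at the limit of detection. Of 21 interferon genes listed, 19 had a row, 12 were at 0 in every library, and the highest total over the 29 libraries was 5 counts, so none could be tested. Of 6 receptor genes, Ifngr2 was lower after TAC, with log2 changes of -0.44 ± 0.09 in the PKCepsilon knockout (adjusted p = 0.000656), -0.28 ± 0.09 in the combined knockout (adjusted p = 0.00939) and -0.42 ± 0.09 in wild type (adjusted p = 0.000381, edgeR's quasi-likelihood test), whereas its change of -0.09 ± 0.10 in the PKCdelta ablation was not called. It averaged 153 ± 12.1 CPM in wild-type TAC hearts and 205 ± 5.59 CPM in unstressed wild type (SD, n = 4 each), and was also lower in the unstressed combined knockout (-0.27 ± 0.09, adjusted p = 0.0172). Ifngr1, the other chain of that receptor, rose by 0.43 ± 0.11 in the PKCepsilon knockout (adjusted p = 0.00435) and 0.56 ± 0.10 in the combined knockout (adjusted p = 4.72e-05), with uncalled changes of 0.22 in the PKCdelta ablation and 0.21 in wild type. Ifnar1 was lower after TAC, with changes of -0.25 ± 0.08 in the PKCdelta ablation (adjusted p = 0.0251) and -0.22 ± 0.07 in wild type (adjusted p = 0.0217; 0.0655 without both libraries in doubt). In the PKCepsilon and combined knockouts it changed by -0.13 and 0.04 (adjusted p = 0.212 and 0.716). Ifnlr1 and Il10rb encode the receptor of type III interferon. Ifnlr1 was higher by 0.70 ± 0.16 in the unstressed combined knockout than in wild type (adjusted p = 0.00127), fell by 0.67 ± 0.15 after TAC in that genotype (adjusted p = 0.000837), and its TAC response differed from that of wild type by -0.85 ± 0.22 (adjusted p = 0.00599). These comparisons share the unstressed combined knockout libraries. Il10rb was lower in the unstressed combined knockout (-0.37 ± 0.09, adjusted p = 0.00299). Ifnar2 and Irf1, a factor that activates GTPase genes, were called in no comparison; after TAC Irf1 changed by 0.10, -0.14, 0.07 and 0.04 in the PKCdelta, PKCepsilon, combined and wild-type hearts.

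Other genes of the pathway are given by list. Of 10 further interferon-inducible GTPases, 7 were tested. In the unstressed PKCepsilon knockout 2 were called higher against wild type and none lower, beside 1.53% of all genes higher (median log2 difference 0.61). After TAC in that genotype none was called higher and 2 lower, beside 14.3% of all genes lower. All 7 changes were negative and their median was -1.52. Some of these genes were near the floor. Gbp8 and Gbp11 held at most 12 and 14 counts in any library, and Tgtp1 at most 1.73 CPM. Gbp10 read 7.08, 7.97 and 2.26 CPM in unstressed PKCepsilon hearts, against 0.361, 1.13, 0.904 and 0.535 CPM in unstressed wild type. It read 0.571, 1.495, 2.41 and 0.956 CPM in PKCepsilon TAC hearts. Every unstressed PKCepsilon library lay above every unstressed wild-type library. Gbp10 was higher by 2.98 ± 0.77 (adjusted p = 0.0336, edgeR's quasi-likelihood test) and Gbp8 by 3.61 ± 0.88 (adjusted p = 0.0199), at no more than 12 counts of Gbp8 in any of those libraries. After TAC Gbp10 fell by 2.06 ± 0.68 (adjusted p = 0.0274) and Tgtp1 fell by 1.52 ± 0.51 (adjusted p = 0.0254). In wild type Tgtp1 fell by 1.40 ± 0.54 (adjusted p = 0.0416; 0.0565 without both libraries in doubt). With the most alike libraries summed, the adjusted p of the 4 PKCepsilon calls lay between 0.0623 and 0.282. Gbp10 was uneven elsewhere too, at 4.65, 0.304, 0.645 and 4.15 CPM in combined knockout TAC hearts and 0.671, 3.38, 0.518 and 0.487 CPM in wild-type TAC hearts.

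Of 37 further ISGs tested, after TAC 0 were higher and 2 lower in the PKCdelta ablation, 2 higher and 0 lower in the PKCepsilon knockout, 8 higher and 1 lower in the combined knockout, and 8 higher and 2 lower in wild type (medians -0.08, -0.01, 0.13 and 0.20). Beside them, 26.9%, 28.9%, 43.8% and 35.7% of all genes were called in either direction, in the same order. The chemokine Cxcl10 read 1.01, 0.893, 0.907 and 0.905 CPM in wild-type TAC hearts, against 0.144, 0.451, 0.201 and 0 CPM in unstressed wild type, and rose by 2.21 ± 0.51 (adjusted p = 0.00110, edgeR's quasi-likelihood test). In unstressed hearts it was higher by 2.21 ± 0.55 in the PKCdelta ablation (adjusted p = 0.0173) and 1.85 ± 0.53 in the combined knockout (adjusted p = 0.0100) than in wild type, and its TAC response in the PKCdelta ablation differed from that of wild type by -3.13 ± 0.71 (adjusted p = 0.0191). PKCdelta hearts read 0.851, 1.09 and 0.832 CPM unstressed and 0.713, 0.333 and 0.405 CPM after TAC. Cxcl10 was near the floor, with at most 1.49 CPM in any library, and these comparisons share the unstressed wild-type libraries. The membrane proteins Ifitm2 and Ifitm3 block the entry of virus. Ifitm3 rose after TAC by 0.35, 0.55 and 0.64 in the PKCepsilon, combined and wild-type hearts (adjusted p = 0.0361, 0.000351 and 0.000119), and Ifitm2 by 0.41, 0.29 and 0.38 (adjusted p = 0.00144, 0.00618 and 0.000754).

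Among the other further ISGs, after TAC in the PKCdelta ablation the schlafen gene Slfn5 fell by 0.41 and Ifi203, a member of the p200 family of interferon-inducible nuclear proteins, fell by 0.47 (adjusted p = 0.00738 and 0.0470, edgeR's quasi-likelihood test). After TAC in the combined knockout Ifi204, of the same family, rose by 1.23 and the ADP-ribosyltransferase gene Parp10 fell by 0.39 (adjusted p = 0.000943 and 0.00542). In wild type Oasl1, known in mice as a brake on Irf7, rose after TAC by 0.76 (adjusted p = 0.00696). In unstressed hearts of the PKCdelta ablation Ifi205 was lower than in wild type (-2.62, adjusted p = 0.0305). The TAC response of the combined knockout differed from that of wild type by -0.68 for Parp10, 0.53 for Slfn5, -1.01 for Oasl1 and -0.75 for the secreted glycoprotein gene Lgals3bp (adjusted p = 0.00255, 0.00620, 0.0154 and 0.0154). Without both libraries in doubt the Slfn5 value was 0.34 (adjusted p = 0.0542).

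Of 18 further antigen presentation genes tested, after TAC 4 were higher and 0 lower in the PKCdelta ablation, 1 higher and 3 lower in the PKCepsilon knockout, 2 higher and 6 lower in the combined knockout, and 6 higher and 1 lower in wild type (medians 0.09, 0.07, -0.16 and 0.28). The shares of all genes called were 26.9%, 28.9%, 43.8% and 35.7% in that order. Psmb10, the third catalytic subunit of the immunoproteasome, rose in every genotype, by 0.96 ± 0.11, 0.67 ± 0.11, 0.66 ± 0.10 and 0.75 ± 0.10 in the PKCdelta, PKCepsilon, combined and wild-type hearts (adjusted p = 8.56e-07, 3.79e-05, 2.67e-06 and 1.28e-06, edgeR's quasi-likelihood test). It read 73.7, 71.7, 59.8 and 68.4 CPM in wild-type TAC hearts, against 39.1, 44.8, 37.2 and 41.3 CPM in unstressed wild type. Tap2, the partner of Tap1 in the peptide pump, rose by 0.50 in the PKCdelta ablation and 0.39 in wild type (adjusted p = 0.000630 and 0.00120), and Erap1, which trims peptides, was lower in the PKCepsilon knockout and wild type, with changes of -0.49 and -0.61 (adjusted p = 0.00216 and 8.84e-05). The MHC class I genes H2-Q4 and H2-K1 rose by 0.73 and 0.59 in the PKCdelta ablation (adjusted p = 0.0132 and 0.0484) and H2-T23 by 0.57 in wild type (adjusted p = 0.00461). In the PKCepsilon knockout the proteasome activator subunit Psme2 fell by 0.23 and the class I transactivator Nlrc5 fell by 0.80 (adjusted p = 0.0290 and 0.0497; 0.0580 for Nlrc5 without both libraries in doubt, which belong to other groups).

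After TAC in the combined knockout the MHC class II pathway genes Cd74 and H2-DMa were lower, with log2 changes of -0.72 and -0.74, as was the proteasome activator subunit Psme1 with -0.30 (adjusted p = 0.000221, 0.000420 and 0.00236, edgeR's quasi-likelihood test). Unstressed, Psme2 was 0.21 higher there than in wild type (adjusted p = 0.0356). In TAC hearts of the combined knockout 6 of the 18 were lower than in wild type and 0 higher, among them Cd74 (-0.69 ± 0.14, adjusted p = 0.00784; 0.00832 without both libraries in doubt), H2-DMa (-0.72, adjusted p = 0.00924), H2-Eb1 (-0.73, adjusted p = 0.0156) and H2-Ab1 (-0.68 ± 0.16, adjusted p = 0.0133; 0.0300 without them). Cd74 read 178, 247, 235 and 145 CPM there, against 297, 380, 310 and 307 CPM in wild-type TAC hearts, without overlap. The difference between the TAC responses of the combined knockout and wild type was -1.003 for H2-DMa, -0.91 for Cd74, -0.89 for H2-Ab1 and -0.89 for H2-Eb1 (adjusted p = 0.00169, 0.00195, 0.00507 and 0.00919). Macrophages and B cells express class II genes. When combined knockout and wild-type TAC hearts were compared, 5 of 16 macrophage markers and 6 of the 18 genes above were lower, beside 2.54% of all genes. B cell markers summed to 5.54 to 8.50 CPM against 8.39 to 10.9 CPM, with 0 of 5 tested called. Their part in these values was not tested.

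Of 13 genes of nucleic acid sensing, after TAC 2 were higher and 2 lower in the PKCdelta ablation, 1 and 1 in the PKCepsilon knockout, 1 and 2 in the combined knockout, and 2 and 1 in wild type. Among all genes 26.9%, 28.9%, 43.8% and 35.7% were called in that order. Mavs, the adaptor downstream of RIG-I and MDA5, was lower in every genotype, with log2 changes of -0.39, -0.28, -0.55 and -0.30 in the PKCdelta, PKCepsilon, combined and wild-type hearts (adjusted p = 0.000304, 0.00362, 8.97e-08 and 0.000650, edgeR's quasi-likelihood test). Traf3, a ligase on the same route, rose in all of them, by 0.41, 0.45, 0.30 and 0.59 (adjusted p = 0.00292, 0.000721, 0.00528 and 7.54e-06). After TAC the kinase Ikbke rose by 0.87 and the DNA sensor Mb21d1 (cGAS) fell by 1.01 in the PKCdelta ablation (adjusted p = 0.00801 and 0.0413). The Toll-like receptor adaptors Ticam1 (TRIF) and Myd88 were called in 1 genotype each. Ticam1 fell by 0.37 in the combined knockout (adjusted p = 0.00505) and Myd88 rose by 0.41 in wild type (adjusted p = 0.00329).

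Of 10 brakes on interferon signalling, 1 was higher and 1 lower after TAC in the PKCdelta ablation, 1 and 1 in the PKCepsilon knockout, 2 and 3 in the combined knockout, and 3 and 1 in wild type. Beside these stood 26.9%, 28.9%, 43.8% and 35.7% of all genes called, in the same order. Pias1, which holds back interferon signalling, fell in every genotype, with changes of -0.50, -0.37, -0.44 and -0.48 in the PKCdelta, PKCepsilon, combined and wild-type hearts (adjusted p = 0.000844, 0.00577, 0.000272 and 0.000182, edgeR's quasi-likelihood test). The feedback inhibitor Socs3 rose by 0.83, 1.16 and 0.69 in the PKCdelta, combined and wild-type hearts (adjusted p = 0.0230, 9.17e-05 and 0.0119), and Socs1 by 1.17 in wild type (adjusted p = 0.0198). Ptpn11 and Ptpn6 encode the phosphatases SHP-2 and SHP-1. Ptpn11 rose by 0.33 in the PKCepsilon knockout and 0.58 in the combined knockout (adjusted p = 0.0181 and 1.58e-05). Ptpn6 fell by 0.51 in the combined knockout (adjusted p = 0.0108) and rose by 0.50 in wild type (adjusted p = 0.0159). The TAC responses of these genotypes differed by -1.01 for Ptpn6 and 0.45 for Ptpn11 (adjusted p = 0.00187 and 0.0146). Among TAC hearts, the phosphatase gene Ptpn2 in the combined knockout was 0.42 higher than in wild type (adjusted p = 0.0198) and the DNA exonuclease gene Trex1 was lower (-0.42, adjusted p = 0.0263; 0.0751 without both libraries in doubt).

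Of 10 JAK-STAT and IRF genes other than members, 1 was higher and 1 lower after TAC in the PKCdelta ablation, 0 and 1 in the PKCepsilon knockout, 1 and 0 in the combined knockout, and 2 and 1 in wild type. The shares of all genes called there were 26.9%, 28.9%, 43.8% and 35.7% in the same order. The receptor kinase Jak1 was lower after TAC, with changes of -0.22, -0.30 and -0.41 in the PKCdelta, PKCepsilon and wild-type hearts (adjusted p = 0.0286, 0.00152 and 1.51e-05, edgeR's quasi-likelihood test), and its partner kinase Jak2 rose by 0.44 in the combined knockout (adjusted p = 0.00504). Irf8, a factor of macrophages and other myeloid cells, rose by 0.60 in the PKCdelta ablation and 0.47 in wild type (adjusted p = 0.0317 and 0.0384), and Irf5 by 0.47 in wild type (adjusted p = 0.0464; 0.155 without both libraries in doubt). The TAC response of the combined knockout differed from that of wild type by 0.44 for Jak1 and 0.63 for Jak2 (adjusted p = 0.000983 and 0.00892), and by -0.25 for Mavs (adjusted p = 0.0452).

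In the unstressed combined knockout, set against unstressed wild type, 0 of the 10 JAK-STAT and IRF genes were higher and 2 lower. These were Jak1 (-0.34 ± 0.06, adjusted p = 0.000249) and Jak2 (-0.47 ± 0.13, adjusted p = 0.00596, edgeR's quasi-likelihood test). Of the 6 receptor genes 1 was higher and 2 lower, of the 13 sensing genes 3 were higher and 0 lower, and of the 37 further ISGs 6 were higher and 3 lower, beside 29.2% of all genes called. Mavs was 0.34 higher, Traf3 0.32 and Ticam1 0.33 (adjusted p = 0.000227, 0.00764 and 0.0211). For Mavs this is opposite in sign to its change after TAC in the same genotype, with which it shares the unstressed combined knockout libraries. Parp10 was 0.57 higher and Lgals3bp 0.60 (adjusted p = 0.000440 and 0.00658), whereas Slfn5 was lower (-0.34, adjusted p = 0.0106), as was Gbp5 of the further GTPases (-0.61, adjusted p = 0.0309). Of the brakes Ptpn6 was 0.51 higher and Ptpn11 lower by a log2 difference of -0.25 (adjusted p = 0.0195 and 0.0456).

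Markers of other cells of the heart and blood were counted in the same libraries. Counts of called markers stand beside 29.2% of all genes called in the unstressed combined knockout and 3% in the unstressed PKCepsilon knockout. After TAC these shares were 26.9%, 28.9%, 43.8% and 35.7% in the PKCdelta, PKCepsilon, combined and wild-type hearts. Of 17 macrophage and monocyte markers in the files, 16 were above 0 in every library. In the unstressed combined knockout, where 7 members were lower, 5 of 16 tested macrophage markers were higher and 1 lower than in wild type (sums of 509 to 529 CPM against 418 to 477 CPM), while 8 of 14 endothelial markers were lower and none higher (sums of 1538 to 1698 CPM against 1894 to 1951 CPM). Of 12 fibroblast markers 5 were lower and none higher (2063 to 2513 CPM against 2568 to 2728 CPM), and of 5 B cell markers 3 were higher and none lower (7.76 to 12.2 CPM against 5.63 to 7.56 CPM). The part of these markers in the values of the 7 members was not tested. In the unstressed PKCepsilon knockout, where Gbp4 and Gbp9 were higher, 2 of 16 macrophage markers were lower and none higher (355 to 407 CPM against 418 to 477 CPM in wild type). Endothelial sums there were also lower (1802 to 1836 CPM against 1894 to 1951 CPM). Pericyte and smooth muscle markers averaged 1543 CPM against 1429 CPM in wild type, and cardiomyocyte markers 105725 CPM against 96214 CPM. The part of these markers in the Gbp values was not tested. After TAC the called members differed between genotypes, and in the PKCepsilon knockout 4 of 5 were lower. Fibroblast markers summed to 3255 to 3898 CPM in TAC hearts of the PKCdelta ablation against 2353 to 2634 CPM unstressed (5 higher, 2 lower). In the PKCepsilon knockout they summed to 3207 to 4772 CPM against 2514 to 2785 CPM (5 higher, 1 lower). They summed to 3706 to 5210 CPM in the combined knockout against 2063 to 2513 CPM (11 higher, 0 lower), and to 3572 to 5751 CPM in wild type against 2568 to 2728 CPM (5 higher, 1 lower). Their part in the members' TAC changes was not tested. T cell markers summed to at most 6.16 CPM in any library and natural killer cell markers to at most 1.53 CPM, none of 8 natural killer markers had enough counts to be tested, and 1 of them, Klra8, was at 0 in every library.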

How the data were processed

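Polyadenylated RNA of 29 mouse hearts was sequenced as single ends without strand information, per the labels. Per the submitters' processing notes, TopHat2 2.0.10, TopHat, Bowtie2, HTSeq, DESeq, edgeR and the mm10 build were used; the role of each is not given there. The values used are the raw counts per gene deposited by the authors, with 10523709 to 17314739 counts per library. The members held 3565 to 7519 of these counts, which limits the precision of the lowest ones.

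From the counts, CPM were computed here on library sizes scaled by TMM. Genes kept by edgeR's filterByExpr (13765) were fitted with edgeR 4.0.16 (quasi-likelihood, robust, R 4.3.3) as 8 group means without covariates, giving 13 comparisons with Benjamini-Hochberg adjustment in each. DESeq2 1.42.0, no filter, another scaling, sex terms, a replicate block, only the groups compared, left-out libraries and summed closest pairs were the alternatives. The last was chosen after seeing the data, and the libraries in doubt were named from earlier results. The fit was tested on simulated data. The 35 members and all lists were chosen with earlier results of these data known. The text names every called member, 14 set members whatever their test, the targeted genes, Irf1 and the interferon receptors, and up to 4 called genes of each other list and comparison by smallest adjusted p. Replicate numbers were checked for pairing and do not pair the libraries. Promoters are RefSeq's, of GRCm38.p6. Iigp1's promoter was not used here. One gene of the pathway is not reported here.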

Additional observations from a re-analysis of the deposited data

Results flagged for a closer look

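In 6 of 130 sets of library values (groups of 4), 1 library stood far from the others. Chance alone marks about 1 in 20 such sets. Isg15 read 7.29 CPM in unstressed wild type 2, with 3.28 to 3.82 CPM in the other 3. Gbp9 read 13.9 CPM in unstressed combined knockout 3, with 18.7 to 19.5 CPM in the others. Psmb8 read 13.2 CPM in PKCepsilon TAC 2, with 20.0 to 21.1 CPM in the others. The summed antigen-processing genes reached 26.5 CPM in combined knockout TAC 1, with 41.7 to 44.3 CPM in the others. The GTPase sum divided by the ISG sum was 0.517 in unstressed combined knockout 1, with 0.561 to 0.566 in the others. Prkce read 31.5 CPM in the library labelled combined knockout TAC 2, with 8.21 to 11 CPM in the others.

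For 3 members the TAC response of the combined knockout differed from that of wild type in edgeR's quasi-likelihood test of the difference itself. The log2 difference was 0.991 for Ifit3 (adjusted p = 0.0344), 0.541 for Irgm1 (adjusted p = 0.0471) and 1.28 for Iigp1 (adjusted p = 0.0237). Without both libraries in doubt the adjusted p was 0.102, 0.0975 and 0.0976 for these genes in turn.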

How the results depend on the processing

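Counts of members called are given here. For TAC in wild type (5 as reported, all higher), 8 were called with the Y-linked score as a term, all higher, 10 with only the groups compared, 7 higher and 3 lower, and 3, all higher, with the closest pairs summed. For TAC in the PKCdelta ablation (1, higher), 2 were called with labelled sex, 5 with the Y-linked score and 7 with only the groups compared, 1 of these lower. For TAC in the combined knockout (6), 2 were called with labelled sex and 3 without both libraries in doubt. For the unstressed PKCdelta ablation against wild type (0), 1 was called with only the groups compared, and for the unstressed PKCepsilon knockout (2), 0 with the closest pairs summed. For combined knockout against wild-type TAC hearts (1), 0 were called with labelled sex, with only the groups compared, without both libraries in doubt and with the closest pairs summed, and 5 with the Y-linked score, all lower. For the difference in TAC response of the combined knockout (3, all higher), 6 were called with the Y-linked score, 2 higher and 4 lower, of which 2 were among the 3. With only the groups compared 1 was called, higher, and without both libraries in doubt 1, lower, and neither was among the 3. The causes were not tested.

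Leaving out 1 library gave 3 to 10 calls for TAC in wild type (10 without unstressed wild type 2, 3 without unstressed 3 or 4) and 0 to 2 in the PKCdelta ablation (0 without unstressed 3). It gave 4 to 6 in the PKCepsilon knockout and 3 to 7 in the combined knockout (3 without TAC 2 or 3). Against unstressed wild type it gave 0 to 3 in the PKCepsilon knockout (0 without wild type 1 or 4 or PKCepsilon 1 or 2) and 2 to 8 in the combined knockout (2 without combined 1, 3 without combined 3, 4 without wild type 2). It gave 0 to 1 for the combined knockout against wild-type TAC hearts and 0 to 3 for its difference in TAC response (0 without combined TAC 2). The other comparisons stayed at 0. No called member changed sign; over the alternative fits of single members 128 values lost a call and 28 gained one, while 3486 kept their side of the threshold.

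Same-numbered libraries did not deviate together (correlations of -0.157 to 0.198), so the replicate numbers do not pair them. With the replicate block, 1, 6, 5 and 4 members were called after TAC in the PKCdelta ablation, the PKCepsilon knockout, the combined knockout and wild type. Against wild type, 0, 2 and 6 were called in unstressed hearts of the PKCdelta, PKCepsilon and combined genotypes, 0, 0 and 1 in TAC hearts, and 0, 0 and 3 for the differences in response. The share of all genes called for combined knockout against wild-type TAC hearts fell to 0.886% with labelled sex and 0.0153% with only the groups compared, and was 3.83% with the closest pairs summed and 12.5% with the Y-linked score. For the unstressed PKCepsilon knockout against wild type it was 0.468% with the closest pairs summed.

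Members held 3565 to 7519 counts per library in all, so small changes of the lowest ones were not detectable at this depth. Reads that the Gbp and Irgm copies or antisense partners share cannot be told apart. Hearts of 3 or 4 a group, sex labels that go against Y-linked counts, and the absence of a sham group in the labels limit every comparison.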
